A study of Mus musculus with 51 samples.

Results

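The genes of PRDM9, HELLS and 6 proteins that act beside them were examined at their own loci in mouse male germ cells. The 8 genes, Prdm9, Hells, Zcwpw1, Ewsr1, Cxxc1, Ehmt1, Ehmt2 and Cdyl, were taken by name from the 21938 protein-coding genes of the GENCODE M21 annotation. A deposited region belonged to a gene when it overlapped, by at least 1 bp, its body or a promoter window of 1 kb on either side of any of its annotated transcription start sites. By this rule 23 of 81887 regions belonged to the 8 genes in the ATAC-seq table of the B6 and KI strains and 35 of 95109 in the ATAC-seq table of the Hells genotypes. The H3K9ac table held 35 of 91909, that of H3K4me3 had 22 of 78960 and that of the F1 hybrid had 22 of 80892. All measurements were of chromatin, so levels of the genes' RNA or protein were not measured.

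The series held 51 samples from male mice and asked, by its title, how HELLS and PRDM9 open chromatin at the places where meiotic recombination starts. Germ cells were enriched at 12 to 14 days post-partum, when spermatocytes first enter meiosis, for ATAC-seq, which counts transposase insertions in open chromatin, and for ChIP-seq of 2 histone marks, H3K9ac and H3K4me3. B6 denotes C57BL/6J (2 ATAC-seq and 3 H3K9ac libraries), and KI denotes B6-Prdm9CAST-KI, in which Prdm9 carries the allele of CAST mice (2 ATAC-seq and 2 H3K9ac libraries). Hells CKO is a conditional knockout of Hells (3 ATAC-seq and 3 H3K4me3 libraries) and Hells wt its wild type (2 and 1). The labels name neither the Cre driver nor the part of Hells that is removed, so signal at the Hells promoter checks nothing about the knockout. Spo11/Spo11 mice lack functional copies of the gene for the enzyme that cuts DNA in meiosis (1 H3K9ac and 2 H3K4me3 libraries), and Spo11/+ mice keep 1 functional copy (1 H3K4me3 library). Hybrid (B6xCAST) F1 males gave 2 ATAC-seq libraries and 1 H3K9ac library with counts per allele. Peak lists came from 6-week testis for DMC1, the recombinase that coats the DNA ends at meiotic breaks, in Hells het and Hells CKO mice, and from KI testis at 12 to 14 days for HELLS.

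PRDM9 binds DNA through an array of zinc fingers and methylates histone H3 at lysines 4 and 36 around its binding site, and SPO11 then cuts there; the fingers differ between mouse strains, so B6 and CAST alleles of Prdm9 mark different hotspots. HELLS, also called LSH, is an SNF2-family remodeller that moves nucleosomes and is otherwise known from DNA methylation. ZCWPW1 reads the pair of marks that PRDM9 leaves. EWSR1, an RNA-binding protein, CXXC1, the CpG-binding subunit of the SET1 methyltransferase complex, EHMT2, an H3K9 methyltransferase, and CDYL, a chromodomain protein, have been described as binding partners of PRDM9, and EHMT1 is the partner enzyme of EHMT2.

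The sequences the results turn on are of 2 kinds, promoters rich in CpG and intragenic sites poor in CpG. They were read from the RefSeq genome of the mm10 build, 5′ to 3′ on the strand of the gene, with CpG dinucleotides in capitals. The first pair shows the DNA directly upstream of the annotated 5′ ends of Prdm9 (250 bases, 13 CpG, 60.8% GC) and Hells (175 bases, 14 CpG, 64.0% GC).
Prdm9 upstream, chr17:15564355-15564604, minus strand: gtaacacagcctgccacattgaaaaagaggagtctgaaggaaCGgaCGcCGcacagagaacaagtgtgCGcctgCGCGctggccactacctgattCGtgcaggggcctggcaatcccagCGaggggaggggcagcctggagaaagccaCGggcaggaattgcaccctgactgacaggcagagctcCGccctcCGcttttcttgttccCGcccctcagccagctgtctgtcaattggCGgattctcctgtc
Hells upstream, chr19:38930740-38930914, plus strand: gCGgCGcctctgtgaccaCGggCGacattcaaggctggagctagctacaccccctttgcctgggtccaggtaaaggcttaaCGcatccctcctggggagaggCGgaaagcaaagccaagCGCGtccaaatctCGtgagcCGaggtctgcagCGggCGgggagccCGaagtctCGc

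The next set shows 200 bases at the centre of the HELLS peak in an Ehmt1 intron, where the KI strain gained signal, and at the centre of 4 intragenic sites of Ehmt1 and Cdyl where H3K4me3 was lower in Hells CKO. Their CpG counts ran from 0 to 2. Cdyl sites are named by their distance from the gene's annotated 5′ end.
Ehmt1 intron under the HELLS peak, chr2:24799482-24799681, minus strand: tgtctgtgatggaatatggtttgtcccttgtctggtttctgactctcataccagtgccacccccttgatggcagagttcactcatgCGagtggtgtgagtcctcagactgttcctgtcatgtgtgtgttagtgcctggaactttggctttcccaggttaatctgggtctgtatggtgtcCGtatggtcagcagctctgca
Ehmt1 site, chr2:24846901-24847100, minus strand: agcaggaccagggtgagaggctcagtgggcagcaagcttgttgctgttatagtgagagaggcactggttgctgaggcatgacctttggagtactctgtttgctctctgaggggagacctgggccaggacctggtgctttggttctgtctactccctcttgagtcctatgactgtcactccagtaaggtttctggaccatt
Cdyl site at 122.2 kb, chr13:35781901-35782100, plus strand: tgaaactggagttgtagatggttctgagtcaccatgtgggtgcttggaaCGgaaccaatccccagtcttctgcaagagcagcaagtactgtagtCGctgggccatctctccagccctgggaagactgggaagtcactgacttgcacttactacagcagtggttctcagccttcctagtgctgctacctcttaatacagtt
Cdyl site at 164.0 kb, chr13:35823701-35823900, plus strand: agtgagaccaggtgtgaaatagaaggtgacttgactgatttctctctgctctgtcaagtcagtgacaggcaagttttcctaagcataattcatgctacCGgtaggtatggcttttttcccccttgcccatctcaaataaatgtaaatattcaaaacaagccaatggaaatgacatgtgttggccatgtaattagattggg
Cdyl site at 182.4 kb, chr13:35842101-35842300, plus strand: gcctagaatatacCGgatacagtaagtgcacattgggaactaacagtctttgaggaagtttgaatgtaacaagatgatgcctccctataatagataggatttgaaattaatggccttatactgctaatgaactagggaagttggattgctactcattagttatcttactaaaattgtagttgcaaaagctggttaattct

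The RefSeq promoter table, which covers 250 bases before to 50 after a start, held 12 entries for 7 of the genes. CG was present in 94.57% of the table's 32851 promoters, with a median of 7 per promoter. The main Prdm9 entry held 18 CpG and the Hells entry 34. Cdyl differed between its entries: the one at the annotated 5′ end held 3 CpG, and those about 81.6 kb downstream held 34 and 32.

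Motifs were searched on both strands. The letters TTCCCGC, the core of an E2F site, occurred in 4.6% of promoters. In Hells they began 61 bases before the start of the entry, which lay 75 bases downstream of the annotated 5′ end. That match was therefore inside the annotated gene and is not in the upstream sequence printed above. In Prdm9 they began 47 bases before the start. In Prdm9 this match overlapped, by its last base, a match to CNCCTCAG, the STRA8 site, which began 41 bases before the start; a second STRA8 match lay 15 bases after the start. CNCCTCAG occurred in 7.942% of promoters and, among the 12 entries, in that of Prdm9 alone. STRA8 is the transcription factor that starts the meiotic programme. The NFY letters CCAAT occurred in 37.41% of promoters and, on the reverse strand, 19 bases before the start of Prdm9. The NRF1 motif occurred in 4.603% of promoters and in Prdm9, Zcwpw1, Ewsr1 and Ehmt1, 183, 21, 2 and 148 bases before the starts of their entries. The start of the Ewsr1 entry lay 170 bases downstream of the annotated 5′ end. The E-box CACGTG occurred in 7.15% of promoters and in both entries of Ehmt2.

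Counts in regions ranged from 6416704 to 42007820 over the 22 libraries of the 4 count tables, with the Hells ATAC-seq libraries shallowest at 6416704 to 11352108. Levels are given as CPM, a region's count scaled to a common library total, and as CPM per kb of region where genes are compared. Germ cell marker genes had a promoter region for 8 of 8 in every table, yet Sertoli promoters also carried signal in every table; the libraries were of enriched, not pure, germ cells, and a change in the share of cells cannot be told apart from a change per cell. H3K9ac B6 replicate 2 stood apart from the other B6 libraries: without it the regions called in KI against B6 went from 11121 higher and 191 lower to 26360 and 24586. The labels do not say whether libraries of a group are of separate animals; p-values cover the spread between these libraries, which may be technical. Each comparison below was tested with edgeR over its whole table, and called means a Benjamini-Hochberg adjusted p under 0.05.

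All 8 genes carried open chromatin, H3K9ac and H3K4me3 at a main promoter, and none of these promoters was called in any of 7 comparisons between genotypes. The main promoter was the promoter region with the highest mean CPM of its gene in each table. In each table the 8 promoters lay above at least 92.05% of all regions in mean CPM. That rank follows in part from the choice, is not scaled for region length and is set against all regions, not promoters alone. At Prdm9, the methyltransferase gene, ATAC signal was 43.7 and 39.8 CPM per kb in B6 and 40.65 and 39.0 in KI, so the 2 strains overlapped. Its H3K4me3 was 39.4, 21 and 23.8 CPM per kb in Hells CKO, 18.9 in Hells wt, 28.0 in Spo11/+ and 25.7 and 26.7 in Spo11/Spo11, with Hells CKO replicate 1 highest. Its H3K9ac was 11.5, 20.03 and 11.4 CPM per kb in B6, 22.6 and 19.25 in KI and 17.8 in Spo11/Spo11, so B6 replicate 2 reached the KI range and the other B6 libraries did not. Without B6 replicate 2 the H3K9ac log2 fold change of KI against B6 at the Prdm9 promoter was 0.87 with an adjusted p of 1.47e-05, against 0.55 and no call with it.

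At Hells, the remodeller gene, ATAC signal was 26.8 and 26.9 CPM per kb in B6 and 21.35 and 21.2 in KI, which did not overlap (log2 fold change -0.33, the lowest of the 8 promoters, not called). In the Hells genotypes it was 22.0, 18.2 and 14.05 in Hells CKO and 23.2 and 17.7 in Hells wt, which overlapped. Its H3K4me3 was 25.1, 16.15 and 20.5 CPM per kb in Hells CKO, 15.4 in Hells wt, 19.8 in Spo11/+ and 19.99 and 21.5 in Spo11/Spo11. All 3 knockout libraries lay above the single wild type, and the Spo11 libraries lay within the knockout range.

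**Figure D1:**
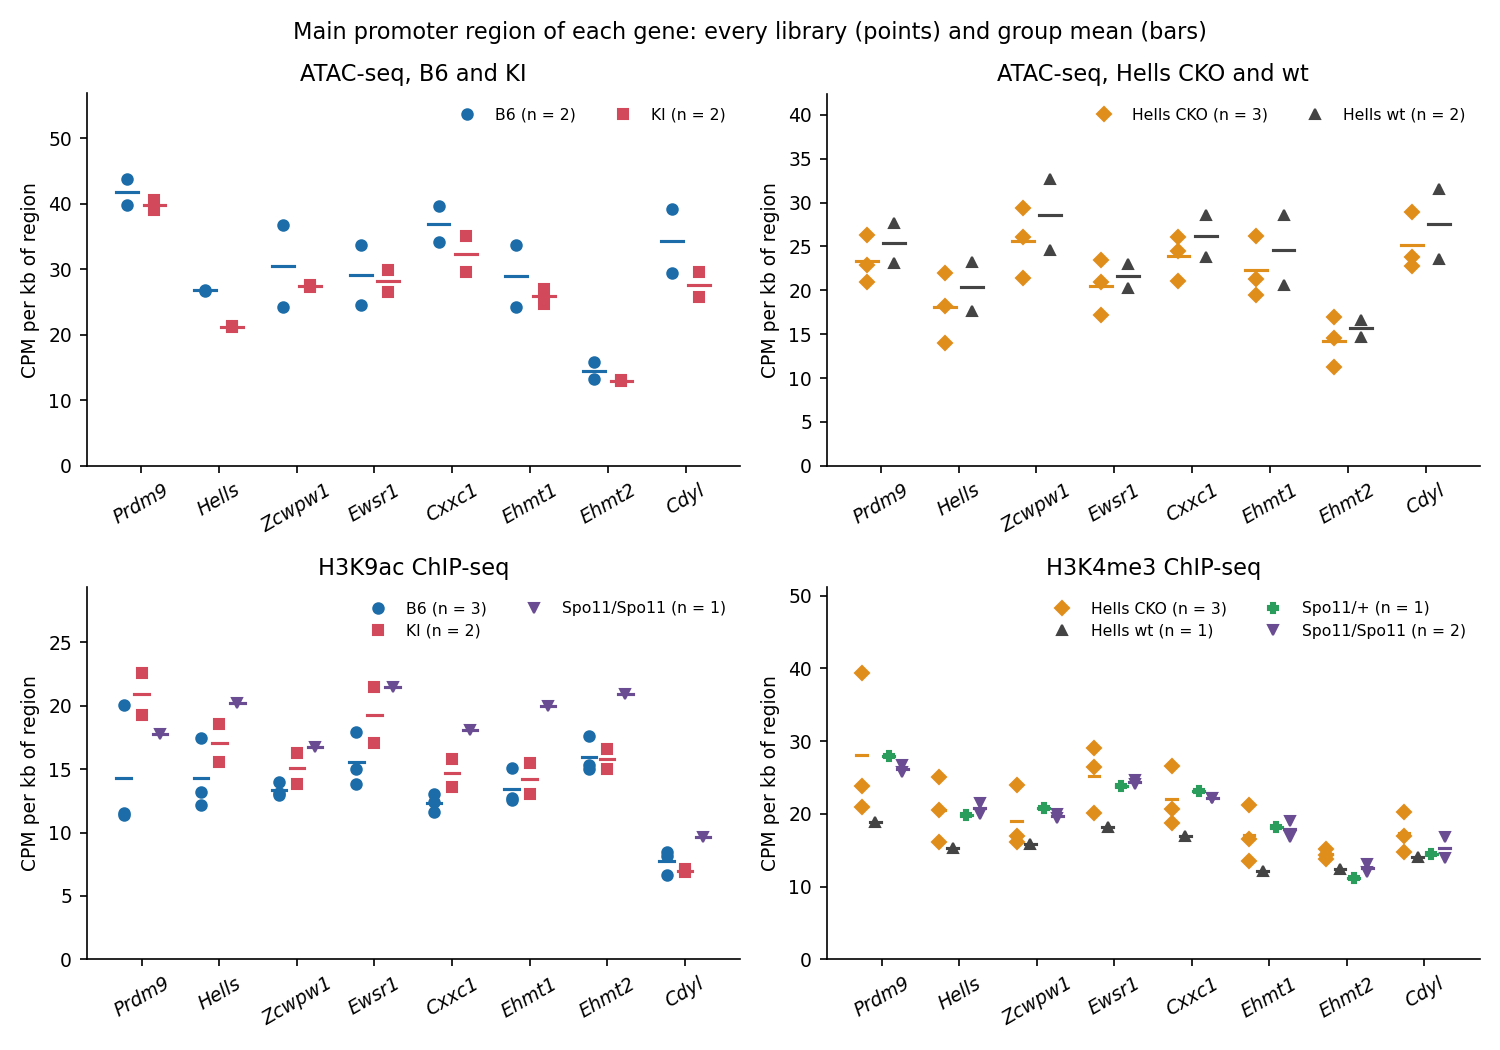
CPM per kb at the main promoter region of each gene in 4 tables; points are libraries, horizontal bars group means, and n is given per group. Prdm9 is highest by median in 3 panels, and no promoter separates the groups by an adjusted p under 0.05.

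Ordered by median CPM per kb in the B6 and KI table, Prdm9 (40.25) was followed by Cxxc1 (34.7), Cdyl (29.5), Ewsr1 (28.25), Zcwpw1 (27.5), Ehmt1 (25.9), Hells (24.05) and Ehmt2 (13.2). Neighbours in this order overlapped over the 4 libraries except Hells and Ehmt2, whose highest library, 15.8, was below the lowest of Hells, 21.2. The Prdm9 promoter also had the highest median in H3K9ac (18.5) and H3K4me3 (25.7) and in the Hells ATAC-seq table (23.1) ranked behind Zcwpw1 (26.0), Cxxc1 (24.5) and Cdyl (23.8). In the H3K9ac table Cdyl was lowest, with 6.63 to 9.65 CPM per kb, below every library of the other 7 genes; its region there was 8481 bp long. These values are averages over regions whose borders differ between tables, and several regions hold the promoter of another gene: Mepce beside Zcwpw1, Rhbdd3 beside Ewsr1, C2 beside Ehmt2 and, in the 2 histone tables, Gm6686 beside Prdm9.

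The annotated 5′ end of Cdyl held no region in any table. The promoter region of Cdyl lay 81.5 kb downstream of that end in the B6 and KI table, at 13:35739521-35743104, with 141, 105.5, 106 and 92.5 CPM. Chromatin state 1, which covers 1.603% of the genome and 37.62% of protein-coding start sites, was the main state of the main promoter region of all 8 genes in that table.

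Fold changes at the main promoters were small in each comparison. ATAC signal of KI against B6 ran from -0.33 to -0.04 (log2) and that of Hells CKO against Hells wt from -0.17 to -0.07. H3K9ac ran from -0.15 to 0.55 in KI and from 0.31 to 0.57 in Spo11/Spo11, each against B6. In every comparison with B6 the series of the library numbers followed the group, so series and genotype cannot be told apart. H3K4me3 of Hells CKO ran from 0.22 to 0.57 against Hells wt and from 0.03 to 0.26 against all libraries with HELLS, and that of Spo11/Spo11 against Spo11/+ from -0.10 to 0.16. The median over all promoter regions tested was -0.13 for ATAC of KI and -0.05 for ATAC of Hells CKO, 0.19 and 0.20 for the 2 H3K4me3 comparisons of Hells CKO, 0.02 for H3K4me3 of Spo11/Spo11, 0.05 for H3K9ac of Spo11/Spo11 and -0.09 for H3K9ac of KI, where the 8 main promoters had a median of 0.21. Without ATAC B6 replicate 2, which left 1 B6 library, log2 fold changes of KI were -0.35 at Hells, -0.45 at Zcwpw1, -0.41 at Ehmt1 and -0.53 at Cdyl. With it they were -0.33, -0.15, -0.17 and -0.31. The library left out had 103 CPM at Zcwpw1, against 156 in B6 replicate 1. Calls over the whole table rose in both directions in that fit, so no call at these genes is read from it. Without H3K9ac B6 replicate 2, Prdm9, Hells (0.43) and Ewsr1 (0.42) passed as higher in KI, beside 26360 of 91907 regions of the table. In that fit Prdm9, Hells, Ewsr1, Cxxc1 and Ehmt1 had log2 fold changes of 0.57 to 0.67 in Spo11/Spo11, a single library. Calls of Spo11/Spo11 over the whole table rose there as well. H3K4me3 of Ewsr1 passed as higher in Hells CKO without its replicate 2 (0.65 against Hells wt and 0.37 against all libraries with HELLS).

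**Figure D2:**
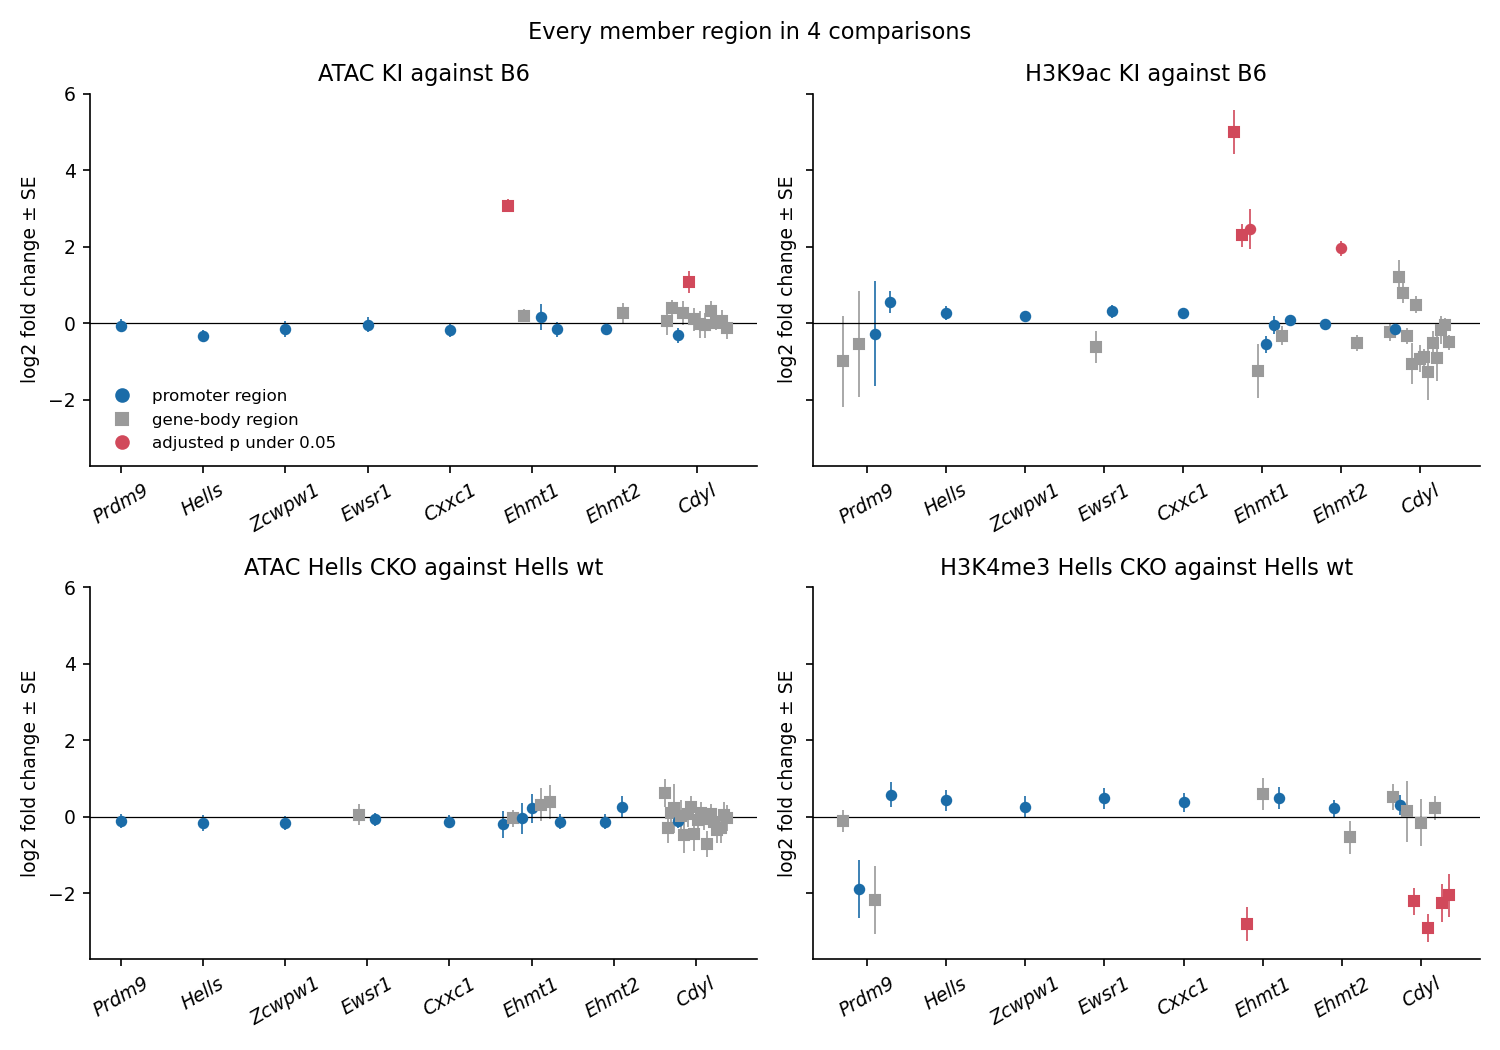
Log2 fold change with its standard error (edgeR) of every member region in 4 comparisons; circles are promoter regions, squares gene-body regions, and red marks an adjusted p under 0.05. Main promoters of all 8 genes sit near 0 in each panel, and the called regions lie inside Ehmt1, Ehmt2 and Cdyl.

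Away from the main promoters, KI chromatin was more open at 1 intron site of Ehmt1 and 1 of Cdyl. Of 23 member regions 2 were called higher and 0 lower, beside 7.14% and 2.27% of all regions tested, a share near that of all regions. The larger was an intron of Ehmt1 (2:24798865-24800597), 119.9 kb downstream of the gene's 5′ end, with 3.39 and 3.96 CPM in B6 and 31.4 and 30.5 CPM in KI. The groups did not overlap, and the log2 fold change was 3.07 with an SE of 0.18 (adjusted p = 3.35e-07). The other was an intron of Cdyl (13:35796151-35796779) with 1.81 and 2.58 CPM in B6 and 5.26 and 4.07 CPM in KI (log2 fold change 1.08, SE 0.29, adjusted p = 0.0325). This call was lost without either KI library (adjusted p = 0.61 without replicate 1 and 0.077 without replicate 2), whereas the Ehmt1 call held in each such fit. The median log2 fold change was 0.01 over the 23 regions and 0.02 over all regions.

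H3K9ac, an acetyl mark of active chromatin, was higher in KI at the same Ehmt1 intron and at 3 further sites. Of 35 member regions 4 were called higher and 0 lower, beside 12.1% and 0.208% of all regions. The region over the Ehmt1 intron (2:24797569-24801345) had 1.58, 4.53 and 1.21 CPM in B6, 68.8 and 77.85 CPM in KI and 4.36 CPM in Spo11/Spo11 (log2 fold change 4.99, SE 0.57, adjusted p = 0.00854). The lowest KI library lay far above the highest of the others there.

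A second Ehmt1 intron (2:24831040-24832251) had 1.03, 1.196 and 0.913 CPM in B6 and 4.07 and 6.175 CPM in KI (log2 fold change 2.29, adjusted p = 0.0113). Another Ehmt1 region (2:24837586-24838634) had 0.484, 1.51 and 0.652 CPM in B6 and 4.395 and 4.96 CPM in KI (2.45, adjusted p = 0.0395). At Ehmt2, the gene of the second H3K9 methyltransferase, a region 12.2 kb into the gene (17:34910026-34911350) had 1.74, 1.83 and 1.79 CPM in B6 and 6.57 and 7.325 CPM in KI (1.96, adjusted p = 0.00665). B6 and KI overlapped at none of the 3, and Spo11/Spo11 had 1.835, 1.07 and 2.75 CPM, below both KI libraries. The last 2 counted as promoter regions because an annotated internal start lies within 1 kb. All 4 calls were lost without either KI library, when no region of the whole table was called; the 4 log2 fold changes then lay between 1.88 and 5.04. Without B6 replicate 3 only the first was kept. The library numbers of the B6 and KI H3K9ac samples are of different series, so series and Prdm9 allele cannot be told apart in this comparison. The same limit holds for ATAC of KI against B6 and for H3K9ac of Spo11/Spo11 against B6. Among markers of other cell types, 1 region each of Vwf (endothelium), Ptprc (blood) and Prm2 (spermatids) was also called higher in H3K9ac of KI, and none of 6 Sertoli genes was. These were 1 of 10, 1 of 2 and 1 of 3 regions of their lists, with list medians of -0.22, 2.37 and 0.19, beside 1253 of 25542 promoter regions. In ATAC of KI another Vwf region (-1.32) and a Uchl1 region (spermatogonia, -0.53) were called lower, beside 213 of 22620. The part of these markers in the member results was not tested.

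The Ehmt1 intron was also 1 of 2 sites among the 8 genes with a HELLS peak, which was called in KI testis. That peak (2:24799149-24800013) held 159 and 93 HELLS counts, 9 IgG and 28 input counts; over all 2675 HELLS peaks the medians were 59 and 50, 9 and 16. The other HELLS peak lay at the Ewsr1 promoter (11:5098418-5099120) with 60 and 63 HELLS, 11 IgG and 20 input counts, close to the list's medians. Ewsr1 was thus the 1 gene of 8 with a HELLS peak at a promoter, beside 6.719% of protein-coding genes. HELLS peaks were chosen on the HELLS libraries, so these counts describe them and test nothing. Of the other 6 genes, Zcwpw1 had the nearest HELLS peak at 45.1 kb and Prdm9 the farthest at 1239 kb.

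The remaining regions at internal starts of Ehmt1 and Ehmt2 were not called. At 28.7 kb into Ehmt1, H3K9ac was 3.68, 5.67 and 4.86 CPM in B6, 4.58 and 4.54 in KI and 4.36 in Spo11/Spo11. At 68.8 kb (2:24848459-24853143) it was 22.8, 15.5 and 20.2 CPM in B6, 12.35 and 14.4 in KI and 19.3 in Spo11/Spo11; both KI libraries were below all others, and the log2 fold change of -0.55 was not called. Without B6 replicate 2 it was -0.69 and called (adjusted p = 7.81e-05). An Ehmt2 region 13.5 kb into the gene had ATAC signal of 11.4, 8.13 and 10.5 CPM in Hells CKO and 9.56 and 7.23 in Hells wt, which overlapped.

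**Figure D3:**
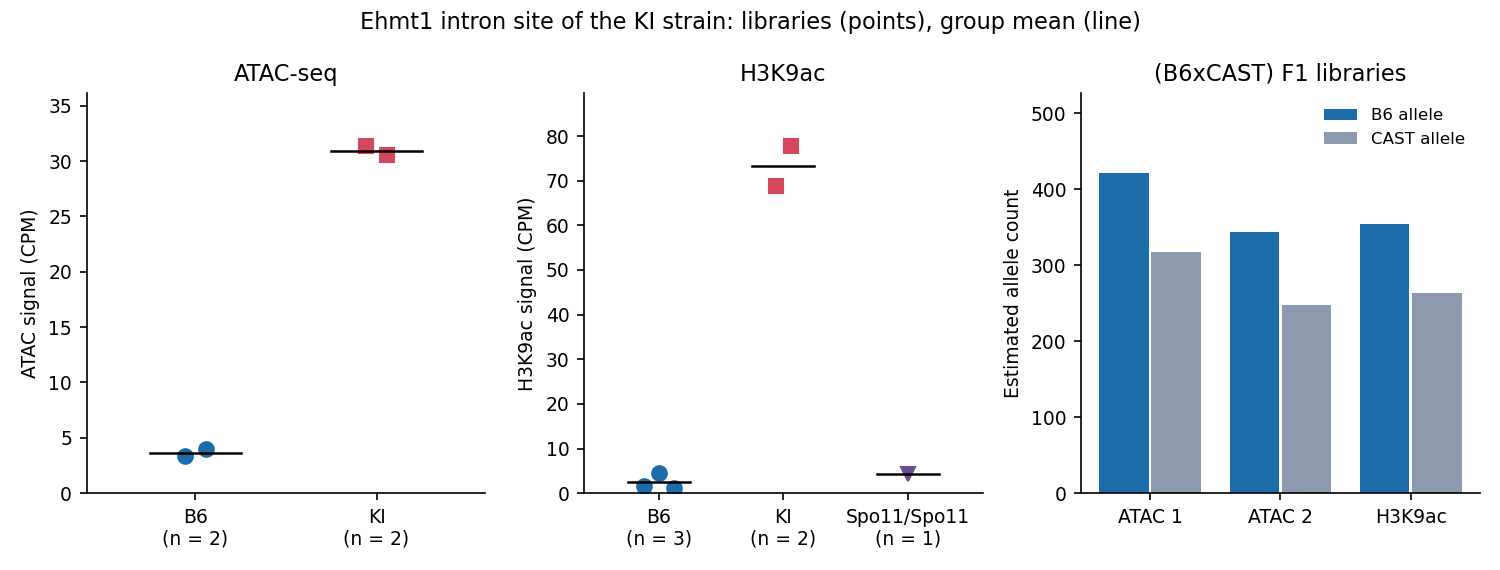
The intron of Ehmt1 that gained signal in KI: ATAC and H3K9ac CPM per library (points) with group means (lines), and allele counts in the F1 hybrid libraries (bars). KI libraries lie at 30.5 and 31.4 CPM in ATAC and 68.8 and 77.85 CPM in H3K9ac, above all others, and the B6 allele has more counts than the CAST allele in each F1 library.

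In Hells CKO, H3K4me3 was lower at 1 site inside Ehmt1 and 4 sites inside Cdyl, the H3K9 methyltransferase and the chromodomain gene. Of 22 member regions 0 were called higher and 5 lower against Hells wt, beside 0.0279% and 11.7% of all regions. Against the mean of the 3 groups with HELLS (Hells wt, Spo11/+ and Spo11/Spo11) the counts were 0 and 5 again, the same regions, beside 2.29% and 16.6%. Both comparisons share the Hells CKO and Hells wt libraries, so they are not independent.

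At the Ehmt1 site (2:24846403-24847598) H3K4me3 was 0.311, 0.310 and 0.367 CPM in Hells CKO, 2.34 in Hells wt, 3.96 in Spo11/+ and 3.11 and 2.90 in Spo11/Spo11. All 3 knockout libraries lay below all 4 others (log2 fold change -2.81, SE 0.44, adjusted p = 0.00151 against Hells wt). At the Cdyl site at 164.0 kb (13:35822803-35824798) it was 0.560, 1.135 and 0.587 CPM in Hells CKO, 5.53 in Hells wt, 10.2 in Spo11/+ and 9.08 and 7.49 in Spo11/Spo11 (-2.91, SE 0.38, adjusted p = 6.14e-04). This site had the highest CPM of the 5 in every library with HELLS. Hells CKO replicate 2 and Hells wt carry library numbers of 1 series, and within it the knockout was the lower of the pair at all 5 sites. The sites were chosen by a comparison that used both libraries, so this order describes them and tests nothing.

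The Cdyl site at 122.2 kb (13:35781403-35782598) had 0.622, 0.722 and 0.770 CPM in Hells CKO and 3.26, 8.91, 6.59 and 5.34 CPM in the libraries with HELLS, in the same order. The site at 178.3 kb (13:35837203-35838998) had 0.280, 0.929 and 0.807 CPM in Hells CKO and 3.12, 6.58, 5.685 and 5.20 CPM in the others. The site at 182.4 kb (13:35841803-35842598) had 0.311, 1.03 and 0.477 CPM in Hells CKO and 2.41, 3.82, 3.08 and 2.645 CPM in the others. Groups with and without HELLS did not overlap at any of them, which is a description because the sites were chosen on these libraries. The log2 fold changes against Hells wt were -2.21, -2.27 and -2.06. The call at 182.4 kb was lost with DESeq2 (adjusted p = 0.0529), without Hells CKO replicate 3 (0.143) and in a fit of Hells CKO and Hells wt alone (0.087); against the 3 groups with HELLS it had an adjusted p of 0.00111. Hells wt, a single library, was the lowest of the HELLS-bearing libraries at all 5 sites, and its spread is assumed to be that of the other groups.

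**Figure D4:**
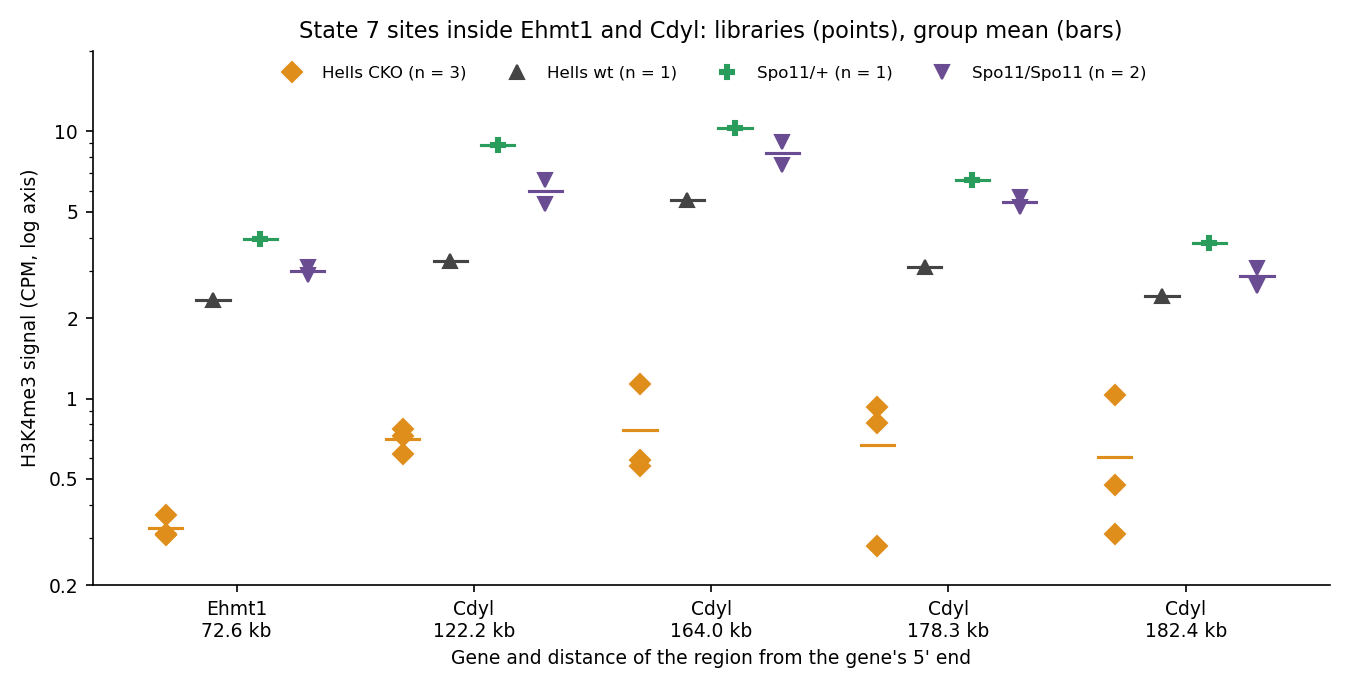
H3K4me3 CPM (log axis) at the 5 intragenic sites of Ehmt1 and Cdyl, named by distance from the gene's 5′ end; points are libraries and bars group means. The 3 Hells CKO libraries lie between 0.280 and 1.135 CPM and the 4 others between 2.34 and 10.2 CPM.

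These 5 sites lay in chromatin state 7 and under DMC1 peaks of Hells het testis, neither of which was used to choose the genes. Each deposited region followed the borders of a state 7 segment to within a few bases, as at Ehmt1 (2:24846403-24847598, segment 2:24846401-24847600). The overlap with state 7 was thus fixed by the regions' borders and is no independent observation, and the DMC1 overlap is a description. State 7 is a segmentation class that covers 0.5616% of the genome and holds 67.5% of the Hells het DMC1 peak midpoints, against 6.432% of the Hells CKO ones. The 8 genes held 7 state 7 segments: 4 in Cdyl, 2 in Ehmt1 and 1 in Prdm9. A Hells het DMC1 peak overlapped 6 of the 7, the exception being a 400 bp segment inside the Ehmt1 region that gained H3K9ac in KI. A Hells CKO DMC1 peak overlapped 2, the Cdyl site at 178.3 kb and the Prdm9 segment. The share of all state 7 segments under a DMC1 peak was not counted, so these counts are descriptions. State 7 made up 2.707% of the Cdyl body, 1.234% of Ehmt1 and 1.88% of Prdm9.

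Spo11 status and the Prdm9 allele were read at the same sites. H3K4me3 of Spo11/Spo11 against Spo11/+ had 0 of 22 member regions called in either direction, beside 0.0% and 0.0% of all regions; an unadjusted p under 0.05 in edgeR was reached by 159 regions, none of them a member, whereas by DESeq2 4 regions of the table were higher and 1 lower. At the 5 sites the log2 fold changes ran from -0.58 to -0.28, with SEs of 0.31 to 0.52. The mark was thus present in libraries without SPO11, at 2.645 to 9.08 CPM. Both Spo11/Spo11 libraries lay below the single Spo11/+ library at all 5 sites, with no call; Spo11/+ and Spo11/Spo11 replicate 1 carry library numbers of 1 series.

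H3K9ac regions covered 4 of these sites. At the Cdyl site at 164.0 kb H3K9ac was 2.065, 8.25 and 2.12 CPM in B6, 1.34 and 2.06 in KI and 6.27 in Spo11/Spo11. At the Ehmt1 site it was 1.16, 4.72 and 1.57 CPM in B6, 1.06 and 0.969 in KI and 3.745 in Spo11/Spo11. B6 replicate 2 and Spo11/Spo11 were high at both, and KI differed from B6 over the 4 by -1.27 to -0.90 (log2), with no call. In H3K9ac of Spo11/Spo11 against B6 0 of 35 member regions were called in either direction, beside 0.0% and 0.0% of all regions. An unadjusted p under 0.05 in edgeR was reached by 3616 regions, of which 3 were members, the promoters of Cxxc1, Ehmt1 and Ehmt2. By DESeq2, 136 regions of the table were higher and 2 lower.

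ATAC signal of Hells CKO against Hells wt had 0 of 35 member regions called in either direction, beside 0.0% of all regions higher and 0.382% lower. By edgeR 1468 regions of the table and 0 members reached an unadjusted p under 0.05. By DESeq2, 0 regions of the table were higher and 424 lower. The Cdyl site at 164.0 kb had an ATAC region with the same borders as its H3K4me3 region, with 3.98, 2.45 and 2.70 CPM in Hells CKO and 5.19 and 4.76 CPM in Hells wt (25 to 54 counts per library). The genotypes did not overlap there, and the log2 fold change of -0.71 (SE 0.35) was not called. With the library series of the labels as a block 4 of 35 members were at an unadjusted p under 0.05 in edgeR, beside 5169 of 95033 regions of the table. The lower calls of the whole table went from 363 to 1197 with the block and to 0 without Hells CKO replicate 3.

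Prdm9 held further signal over its exons, where libraries of 1 group differed widely. H3K9ac over the last exon (17:15543102-15545548, 92.32% exonic) was 13.3, 109 and 13.7 CPM in B6, 36.3 and 8.475 in KI and 6.80 in Spo11/Spo11. A second, partly exonic region (17:15553012-15553923), singled out like 17:15557131-15557644 below after its values were seen, had 1.065, 20.5 and 1.66 CPM in B6, 7.73 and 2.60 in KI and 0.841 in Spo11/Spo11. Another exonic region (17:15554363-15555570) had 0.645, 11.9 and 1.01 CPM in B6, 5.69 and 1.51 in KI and 1.53 in Spo11/Spo11. In all 3 B6 replicate 2 was highest and KI replicate 1 next. The log2 fold change of KI against B6 at 17:15554363-15555570 was -0.28 and turned to 2.16 (adjusted p = 7.71e-05) without B6 replicate 2.

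H3K4me3 showed the same kind of spread at 2 of the Prdm9 exons. At 17:15554573-15555896 it was 1.18, 4.39 and 0.550 CPM in Hells CKO, 7.37 in Hells wt, 0.266 in Spo11/+ and 0.234 and 0.139 in Spo11/Spo11. At 17:15557131-15557644 it was 0.218, 1.24 and 0.183 CPM in Hells CKO, 2.34 in Hells wt, 0.233 in Spo11/+ and 0.0586 and 0.0696 in Spo11/Spo11. Hells wt and Hells CKO replicate 2 were highest at both, and their labels carry the same library number series; its part in these values was not tested. At the last exon (17:15542768-15544998) the 7 libraries lay between 9.73 and 16.25 CPM. None of these regions was called in either comparison of Hells CKO. At 17:15554573-15555896 the log2 fold change was -1.90 against Hells wt and 1.46 against all libraries with HELLS. It passed as lower against Hells wt without Hells CKO replicate 1 (-1.67) or 2 (-3.03) and in a fit of the 2 groups alone (-1.85), and as higher against all libraries with HELLS without Hells CKO replicate 1 (1.69), Hells wt (3.15) or Spo11/Spo11 replicate 1 (1.6), so it has no stable direction. A DMC1 peak lay over the last exon in both lists (17:15544305-15545850 in Hells het), the only place among the 8 genes besides the Cdyl site at 178.3 kb and the promoters of Hells, Zcwpw1 and Ehmt1 where the lists overlapped.

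In the DMC1 list of Hells CKO testis, 7 of 8 genes had a DMC1 peak at a promoter, all but Ehmt2, beside 40.21% of protein-coding genes. That share covers genes with and without an active promoter, whereas all 8 genes here carried H3K4me3 at a promoter. Some also have many annotated starts (17 in Ehmt1 and 12 in Ewsr1), so the shares are not like for like. In Hells het 3 of 8 had one, Hells, Zcwpw1 and Ehmt1, beside 7.713%; with the peak's midpoint required inside the window only Hells remained. Outside promoters, the gene bodies held 6 peaks in Hells het, 4 of them in Cdyl, and 3 in Hells CKO; a peak anywhere in the gene was present for 24.32% and 44.13% of protein-coding genes. Each genotype had 1 merged list, of 15831 and 14692 peaks, so the difference between genotypes was not tested. Over the genome, 63.5% of Hells CKO DMC1 midpoints and 7.226% of Hells het ones lay in state 1.

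In the F1 hybrid 21 member regions had at least 20 allele counts, and 3 were called higher and 2 lower on the CAST allele, beside 7.17% and 9.02% of all regions tested. Over whole libraries the CAST share was 48.94% and 49.06% in ATAC-seq and 48.1% in H3K9ac. The largest difference was in an intron of Cdyl (13:35718777-35721346), with 26 B6 and 117 CAST counts in the first library and 18 and 109 in the second. The CAST share was 81.8% and 85.8%, and the log2 ratio of CAST to B6 was 2.38 with an SE of 0.26 (adjusted p = 1.03e-17). H3K9ac there had 18 B6 and 100 CAST counts, a CAST share of 84.75% (exact 95% interval 76.97 to 90.7%).

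Zcwpw1, the reader gene, had a region at an internal start 11.5 kb into the gene (5:137798608-137800018) with 21 B6 and 44 CAST counts in the first library and 14 and 57 in the second. The CAST share was 67.7% and 80.3% (log2 ratio 1.55, SE 0.34, adjusted p = 9.55e-05), and in H3K9ac it was 88.1% (12 and 89 counts, exact 95% interval 80.17 to 93.7%). The Ewsr1 promoter had 485 and 354 counts and 393 and 290 (CAST share 42.2% and 42.5%, log2 ratio -0.42, adjusted p = 2.03e-04), while H3K9ac had 518 B6 and 568 CAST counts (CAST share 52.3%, exact 95% interval 49.28 to 55.3%). The Cxxc1 promoter (18:74215062-74217448) had 367 B6 and 466 CAST counts and 339 and 403 (CAST share 55.9% and 54.3%, log2 ratio 0.32, adjusted p = 0.00608), while H3K9ac had 109 and 87 (44.4%, interval 37.3 to 51.6%). In Cdyl and Zcwpw1 ATAC and H3K9ac leaned the same way, and in Ewsr1 and Cxxc1 the H3K9ac interval included an even share. Against the H3K9ac library's own CAST share of 48.1%, the Ewsr1 interval lay above and that of Cxxc1 included it.

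The Ehmt1 intron that was open in KI had 421 B6 and 317 CAST counts in the first library and 344 and 248 in the second, a CAST share of 42.95% and 41.9% (log2 ratio -0.41, SE 0.10, adjusted p = 7.65e-04), and 42.65% in H3K9ac (355 and 264 counts). Both alleles of the hybrid thus carried signal at this site. The Prdm9 promoter had 340 B6 and 346 CAST counts and 304 and 281 (log2 ratio -0.01, SE 0.11), and the Hells promoter 272 and 277 and then 248 and 201 (-0.10, SE 0.12); neither was called. The main promoters of Zcwpw1 (-0.43), Ehmt1 (0.13) and Cdyl (-0.12) and the 3 regions of Ehmt2 (0.83, 0.68 and 0.08) were not called either. With DESeq2 the Cdyl call alone was kept, and the adjusted p of the other 4 lay between 0.21 and 0.63.

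**Figure D5:**
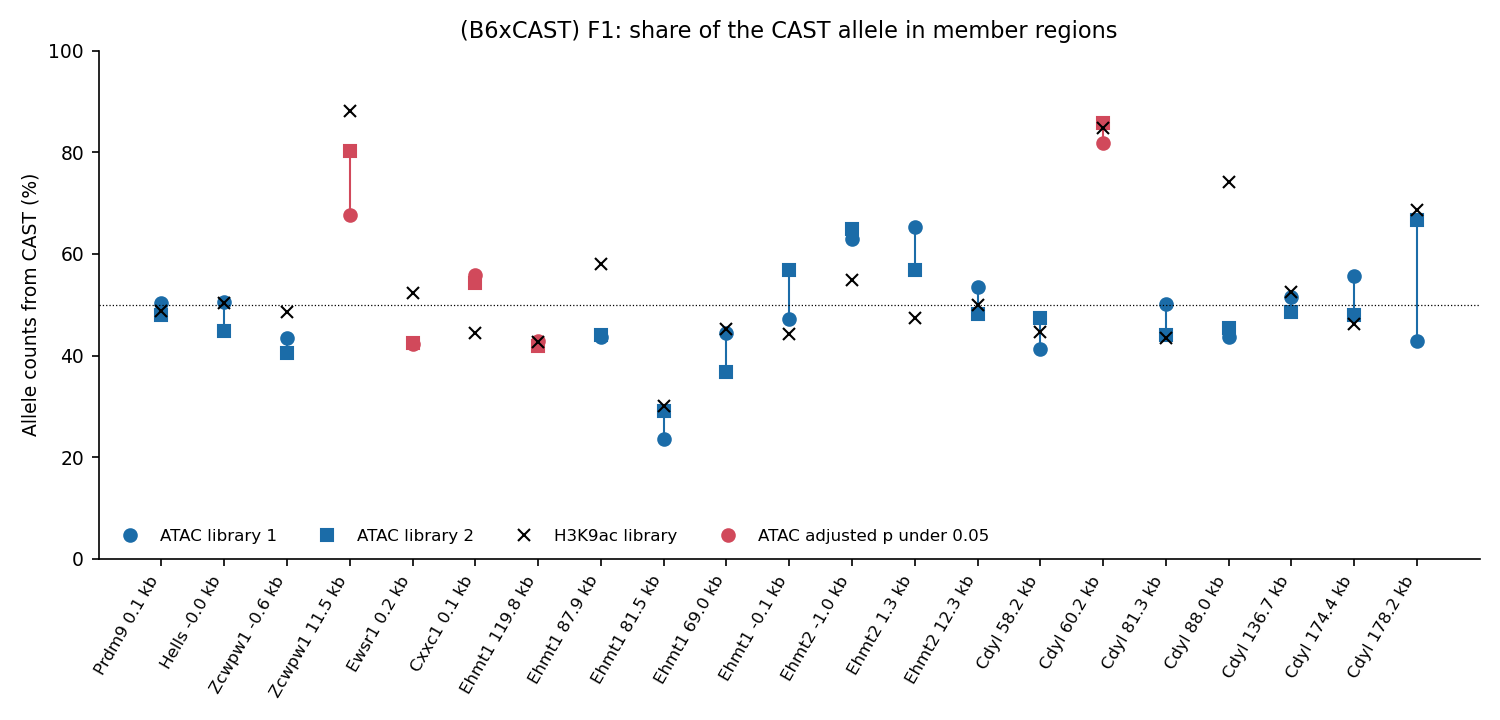
Share of allele counts from CAST in the 21 member regions tested in the F1 hybrid, named by gene and distance from its 5′ end; circles and squares are the 2 ATAC libraries, crosses the H3K9ac library, red an adjusted p under 0.05 in ATAC and the dotted line 50%. The Cdyl region at 60.2 kb and the Zcwpw1 region at 11.5 kb lie above the line in all 3 libraries.

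Genes of the same pathways were read at their promoter regions in 5 lists of 52 genes, chosen with earlier results in view. A region counted when it overlapped 1 kb on either side of any annotated start, so a called region need not be the gene's main promoter. In ATAC of KI against B6, 1 region was called, of Dnmt1, the maintenance DNA methyltransferase (9:20907904-20909120, log2 fold change 2.11, adjusted p = 2.26e-05). It was 1 of 13 regions in the list of 8 HELLS cofactors and DNA methylation genes. In H3K9ac of KI an overlapping region of Dnmt1 was called too (9:20907468-20909759, 4.52, adjusted p = 0.0125). With a region of its list mate Dnmt3l (3.35) it made 2 of 16 regions of that list. Rbbp5 (3.36) was higher and Hcfc1 (-1.79) lower among 8 SET1 complex genes, at 1 region each. Hsf2bp, a partner of BRCA2 (2.16), was higher at 1 region among the 15 of 16 break machinery genes with a region. These H3K9ac calls were lost without either KI library. No gene was called in the lists of 12 H3K9 methylation genes and of 8 paralogues and remodellers in either KI comparison. Among all promoter regions 550 of 22620 were higher in ATAC and 1253 of 25542 in H3K9ac.

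H3K4me3 of Hells CKO against Hells wt was lower at 1 region of Uhrf1, which recruits DNMT1 (17:56317403-56318398, log2 fold change -3.11, adjusted p = 5.10e-04). It was also lower at 1 region of Hcfc1, a SET1 complex subunit (X:73946003-73947198, -2.34, adjusted p = 0.00997). These were 1 of 13 regions of the HELLS cofactor list and 1 of 10 of the SET1 complex list. No other region of the 5 lists was called, and among all promoter regions 11 of 24840 were higher and 870 lower. The Hcfc1 call was lost without Hells CKO replicate 3 (adjusted p = 0.0509). Against all libraries with HELLS, Spo11 (-2.17, adjusted p = 0.0206) and Trim28 (-1.39, adjusted p = 0.0139) were called lower as well; both calls were lost without Hells CKO replicate 3 (adjusted p = 0.0732 and 0.104), and that of Spo11 also without Hells wt (0.0513). Among all promoter regions 927 were higher and 1281 lower in that comparison. There 3 of 6 Sertoli genes, Sox9, Gata4 and Cldn11, were higher (0.60, 0.51 and 0.74). All 3 calls were lost without Hells CKO replicate 3 (adjusted p = 0.222 to 0.229) and without Spo11/+ (0.0876 to 0.12), those of Sox9 and Gata4 without either Spo11/Spo11 library, and that of Gata4 without Hells wt (0.0553). Across all libraries, the summed Sertoli signal was 524 to 756 CPM in Hells CKO, 473 in Hells wt, 407 in Spo11/+ and 459 to 479 in Spo11/Spo11; its part in the member results was not tested. The sum over the 8 germ cell genes was 247 to 365 CPM in Hells CKO, 292 in Hells wt, 391 in Spo11/+ and 362.5 to 369 in Spo11/Spo11. Regions of Kit (spermatogonia, -3.17) and Vwf (endothelium, -3.29) were called lower against Hells wt, and against all libraries with HELLS 2 regions of Kit (-3.49 and -1.99) and 1 of Vwf (-3.70). Their lists held 7 and 8 regions, with medians of 0.17 and 0.10 against Hells wt. The summed spermatogonial signal was 199.5 to 232.4 CPM in Hells CKO, 186.6 in Hells wt, 183.1 in Spo11/+ and 188.4 to 190.9 in Spo11/Spo11. The part of these called regions was not tested either. In the F1 hybrid Setdb1 leaned to CAST (0.84) and Dnmt1 to B6 (-1.32), beside 1205 higher and 1994 lower of 22953 promoter regions; with DESeq2 both calls were lost (adjusted p = 0.255 and 0.328). Hcfc1, Suv39h1 and Atrx lie on chromosome X, present in a single copy in males, and are not read as allelic. Regions of chromosome X are kept in the F1 counts over all promoter regions.

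Across the 22 libraries, centred within each table, the genes whose promoter signal was most like that of Prdm9 were Gtf2e1 (Pearson r = 0.954), A430105J06Rik (0.954) and Rrp15 (0.954), among 19329 genes with a promoter region in all 4 tables. For Hells they were Gm43362, Lrrc40 and Pdcd11 (0.961 each). Between members r was highest for Cxxc1 and Ehmt1 (0.904) and lowest for Prdm9 and Cdyl (0.146), and Prdm9 and Hells had 0.787. These are descriptions: the points share library depth and the share of signal in promoters, and the libraries are of different genotypes.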

How the data were processed

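Raw read counts per region, deposited by the authors in tables of the whole series, were analysed for ATAC-seq (B6 and KI; Hells genotypes), H3K9ac, H3K4me3 and HELLS ChIP-seq. For the F1 hybrid the authors deposited estimated counts per allele, made with EMASE by the name the authors gave the table, and whole numbers as deposited. DMC1 peaks were deposited as 1 merged list per genotype, and an 11-state segmentation made from C57BL/6J marks was deposited too. Per the submitters' processing notes, CASAVA, BWA 0.7.15, Bowtie 0.12.9, MACS 1.4.2 and the mm10 build were used; their settings were not stated. A further 10 columns of per-sample values matched no sample and were not used.

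Each table was fitted whole with edgeR 4.0.16 (quasi-likelihood test, TMM scaling) in R 4.3.3, with all groups of a table in 1 fit, and p-values were adjusted by Benjamini-Hochberg over all regions tested; the Hells ATAC-seq table lost 56 regions that were listed more than once. CPM are counts scaled by the library total times its TMM factor. F1 regions needed at least 20 allele counts, and intervals are exact binomial, covering counting error only. The fits were tested on simulated counts. Named regions were those at a member's promoter windows and, of other gene-body regions, those called in any comparison, holding a DMC1 or HELLS peak or of the highest CPM in a gene; genes of the pathway lists were named where a promoter region was called. Likeness was Pearson's r of log2(CPM + 1), with a pseudocount of 1. The members and lists were chosen with earlier results of these data known. Alternatives were DESeq2 1.42.0, scaling by library size alone, no filter on low counts, other windows and coverage minimums, fits of the 2 groups alone, a library-series block and leaving out each library. The sequence of 1 further Cdyl site is not reported here.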

Additional observations from a re-analysis of the deposited data

How the results depend on the processing

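Over 132 named regions, 994 values were recomputed under the alternatives: 891 kept their side of the threshold with no reversal of a call, 77 lost the call, 21 gained it, 4 moved and 1 reversed, the Prdm9 exon region at 17:15554363 in H3K9ac, at 2.16 once B6 replicate 2 was dropped; its lowest value, with KI replicate 1 dropped, was -1.5. Among the 891, 49 values in 29 regions changed sign where neither value passed. With DESeq2, member regions called lower in H3K9ac of KI went from 0 to 1, and with scaling by library size alone to 1; in the F1 hybrid DESeq2 called 1 higher and 0 lower in place of 3 and 2. Requiring the midpoint inside the window left 1 gene with a Hells het DMC1 promoter peak in place of 3. Leaving out 1 library at a time, members called in ATAC of KI ranged from 1 to 4 higher and 0 to 4 lower (4 higher without B6 replicate 1, 4 lower without B6 replicate 2). In H3K9ac they ranged from 0 to 13 higher and 0 to 10 lower in KI (13 and 10 without B6 replicate 2, 0 higher without either KI library, 1 without B6 replicate 3) and from 0 to 10 higher and 0 to 5 lower in Spo11/Spo11 (10 and 5 without B6 replicate 2). In H3K4me3 of Hells CKO they ranged from 0 to 1 higher against Hells wt (1 without Hells CKO replicate 2) and 0 to 4 against all libraries with HELLS (4 without Hells CKO replicate 1). The causes were not tested. Over all regions, counts that moved by more than 1.5 times with DESeq2 were the lower calls in H3K9ac of KI (191 to 1552), the higher calls in H3K4me3 of Hells CKO against Hells wt (22 to 1042) and against all libraries with HELLS (1807 to 3091) and the F1 calls (5065 and 6375 to 1256 and 1901); library size alone gave 469 lower in H3K9ac of KI and 733 higher in the comparison with all HELLS libraries. Groups with a single library could not be left out of their own comparison. No paired analysis was possible because the labels give no replicate numbers; only the library series could be a block, which in ATAC of Hells CKO gave 1197 lower regions in place of 363.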
